A study of Saccharomyces cerevisiae with 4 samples.

Results

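The genes described here encode the proteins of the small (40S) subunit of the cytosolic ribosome of the budding yeast Saccharomyces cerevisiae. They were taken as all probes whose gene symbol in the platform annotation is RPS followed by a number, with or without a final A or B. The rule found 55 genes, each with 1 probe, among 5539 named genes and 6189 features on the array. Of these genes, 48 form 24 paralog pairs and 7 have no paralog in the set. The rule itself uses no measured value, but it was set with earlier results of these data known.

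Each of 4 arrays, which all belong to 1 group, set RNA of the temperature-sensitive abf1-1 mutant in channel 1 against RNA of wild type cells in channel 2. Both strains had grown in the rich medium YPAD at 30 °C to an OD600 of 1.0 to 1.2, received an equal volume of medium at 42 °C, and were collected after 45 min at 36 °C. Mutant and wild type thus shared the heat shift, and a ratio says nothing about the shift itself. The labels give neither the strain background nor whether each array had a culture of its own, so a p-value here rests on the spread over arrays, and that spread may be technical only.

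The 40S subunit decodes messenger RNA. It has a head, a platform and a body, and most of its proteins are essential. Whole-genome duplication left many yeast ribosomal protein genes in near-identical A and B copies, whose products are often the same or nearly the same protein. Transcription of these genes is a large share of the work of RNA polymerase II in growing yeast and drops transiently under heat and other stress. Most of their promoters are bound by Rap1 with Fhl1 and Ifh1. A few, those of RPS28A, RPS28B and RPS22B among them, have been described as bound by Abf1, the factor that the abf1-1 allele affects.

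Values are the ratios that the authors deposited, taken as log2 ratios, after subtraction of the median of each array. The sources used here state neither the log base nor which strain is the numerator, nor whether all arrays run the same way. A negative value is therefore called negative, and not lower in the mutant. The ratios of arrays 1 and 3 correlated over all features (Pearson r = 0.742), as did arrays 2 and 4 (r = 0.864), while the 4 other combinations lay between -0.22 and 0.05. Features are not independent replicates, so these are descriptions. Every main result below is given array by array for this reason. ABF1 itself had log2 ratios of 0.99, 1.69, 1.96 and 1.82 on arrays 1 to 4. Its mean was 1.62 ± 0.43 (SD, n = 4), with an adjusted p of 0.0255 in limma. The allele changes the protein, so that level does not check the labels.

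The 40S genes had negative ratios as a body, far below the array median on 2 arrays, somewhat below it on array 1 and close to it on array 3. Of the 55 genes 53 had a negative mean ratio, or 96.4%, against 47.5% of all features. The median of the 55 mean log2 ratios was -0.49, and that of all features was 0.02. Without array 2 the median of the 55 was -0.31. On arrays 1 to 4 the median log2 ratio of the 55 genes was -0.23, -0.97, -0.05 and -0.70. Array 2 was thus the most negative, array 4 came next, and array 3 was barely off 0. Within the distribution of each whole array these medians stood at percentiles 31.0, 2.76, 45.1 and 3.94. The number of genes with a negative value was 45, 54, 31 and 53 of 55, where centring sets the share at 50% of all features on arrays 1, 2 and 4 and 49.9% on array 3. Below the 10th percentile of its array lay 3 genes on array 1, 48 on array 2, 0 on array 3 and 41 on array 4, beside 10% of all features on arrays 1 and 4 and 9.99% on arrays 2 and 3.

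**Figure D1:**
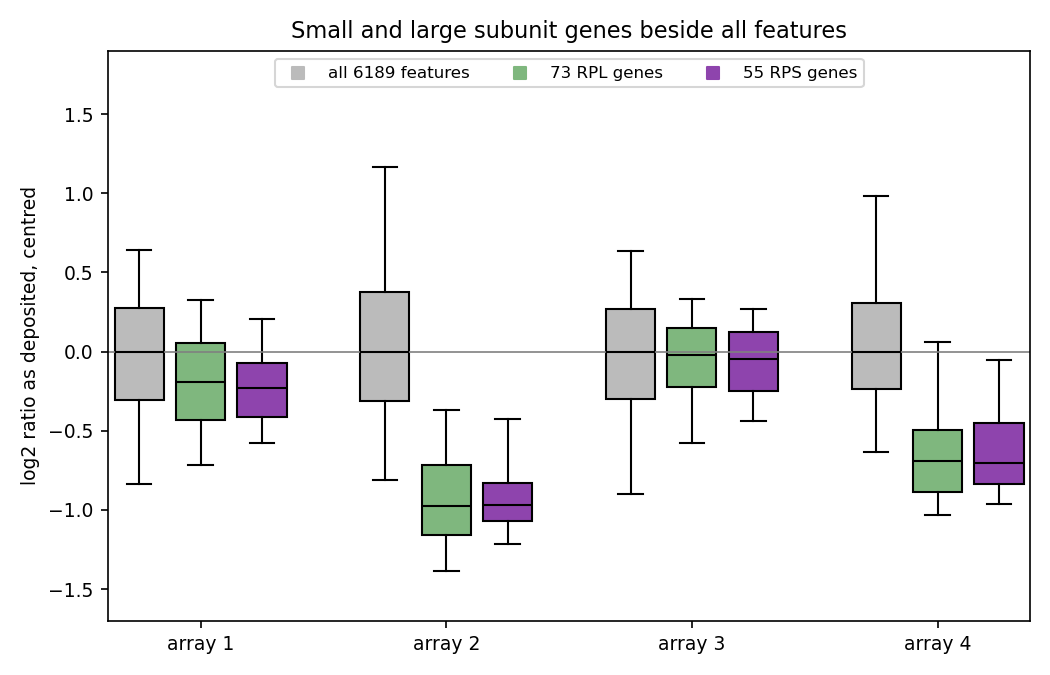
Log2 ratio as deposited and centred (vertical axis) on each of the 4 arrays, for all 6189 features, 73 RPL and 55 RPS genes; boxes span the quartiles with the median as a line, and whiskers reach from the 5th to the 95th percentile. The RPS boxes lie low on arrays 2 and 4, with medians of -0.97 and -0.70, and near 0 on array 3, with -0.05, and the RPL boxes lie beside them.

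No single 40S gene passed the test across the 4 arrays. Limma, with Benjamini-Hochberg adjustment over all 6189 features, called 0 of the 55 genes at an adjusted p below 0.05, whereas 3.23% of all features were called. At an unadjusted p below 0.05 there were 27 of 55 genes with negative means, against 11.1% of all features, and 1 with a positive mean, against 9.69%. The positive one is the gene that carried repeated values, and without it there were 0. The unadjusted count is not evidence on any one gene. In either direction it was 25, 14, 39 and 12 without arrays 1 to 4, beside 14.5%, 16.4%, 17.2% and 12.2% of all features. On all 4 arrays 27 genes were negative, against 16.4% of all features, and 20 were negative on 3 arrays, 7 on 2 and 1 on 1. No gene was positive on all 4, a pattern that 14.7% of features showed. If arrays 2 and 4 had their signs turned, the median of the 55 means was 0.34 and 3 genes had negative means, so the shared direction holds only if the deposited signs run one way. Limma then called 0 of the 55, beside 4.88% of all features, with 7 at an unadjusted p below 0.05, beside 23%.

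The 7 genes without a paralog in the set were negative on every array. Among the 6 lowest means of the set were 4 of them, RPS2, RPS3, RPS12 and RPS15, while RPS20 and RPS13 lay nearer the middle. Their mean ratios had a median of -0.66, and the 47 paired genes without repeated values had a median of -0.47. This split was not tested, and with turned signs the medians were 0.29 and 0.34. RPS2 (YGL123W) encodes a protein beside the messenger RNA entry site whose mutations reduce the accuracy of decoding. Its log2 ratios on arrays 1 to 4 were -0.67, -1.32, -0.40 and -0.93. It had the lowest mean of all 55, -0.83 ± 0.39 (SD, n = 4), a 1.78-fold difference, and it missed the threshold with a limma adjusted p of 0.0696. RPS3 (YNL178W), for another protein of the entry site, had -0.57, -1.18, -0.55 and -0.67. Its mean was -0.74 ± 0.29 with a limma adjusted p of 0.0598. RPS12 (YOR369C), for a protein of the beak of the head, had -0.55, -1.06, -0.47 and -0.60. Its values lay close together outside array 2, with a mean of -0.67 ± 0.26 and a limma adjusted p of 0.0674.

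The other 4 genes without a paralog differed more between arrays. RPS15 (YOL040C), whose protein lies in the head and is needed for export of the precursor subunit, had -0.12, -1.25, -0.24 and -1.02. RPS31 (YLR167W), which encodes a fusion of ubiquitin to a ribosomal protein of the beak, had -0.01, -1.15, -0.22 and -1.06. RPS20 (YHL015W), for a head protein, had -0.10, -1.14, -0.15 and -0.81. In these 3 genes arrays 2 and 4 were low and arrays 1 and 3 near 0, so the SD over arrays was 0.51 to 0.58. RPS13 (YDR064W), for a protein of the body and platform, had -0.36, -1.17, -0.18 and -0.30, with array 2 standing alone. The means of these genes were -0.66, -0.61, -0.55 and -0.51, with limma adjusted p of 0.189, 0.219, 0.219 and 0.216.

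Among paired genes RPS1B (YML063W) came nearest to the threshold. Its protein sits on the platform near the exit of the messenger RNA. The log2 ratios were -0.75, -1.02, -0.41 and -0.67 on arrays 1 to 4, with a mean of -0.71 ± 0.25 (SD, n = 4), a 1.64-fold difference, and a limma adjusted p of 0.0538. RPS7B (YNL096C), for a body protein that takes part in subunit maturation, had -0.54, -0.98, -0.32 and -0.89, averaging -0.68 ± 0.31 (limma adjusted p 0.0744). In all, 13 genes had a negative mean of at least 1.5-fold, from RPS2 down to RPS26B (-0.60), whose protein lies near the exit site. The share of all features at this size was not counted. Large subunit genes such as RPL5 and RPL12B also had means below that of RPS26B. Some calls depended on the scaling. With the arrays set to equal spread RPS3, RPS1B and RPS12 were called, at limma adjusted p of 0.0407, 0.0422 and 0.0476, and 3.44% of all features were called. RPS1B was also the only RPS gene called without centring (0.0489) and with array weights (0.0468), where 3.44% and 3.78% of all features were called. Over all alternatives the adjusted p reached 0.837 for RPS1B, 0.778 for RPS3 and 0.787 for RPS12, each with turned signs.

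**Figure D2:**
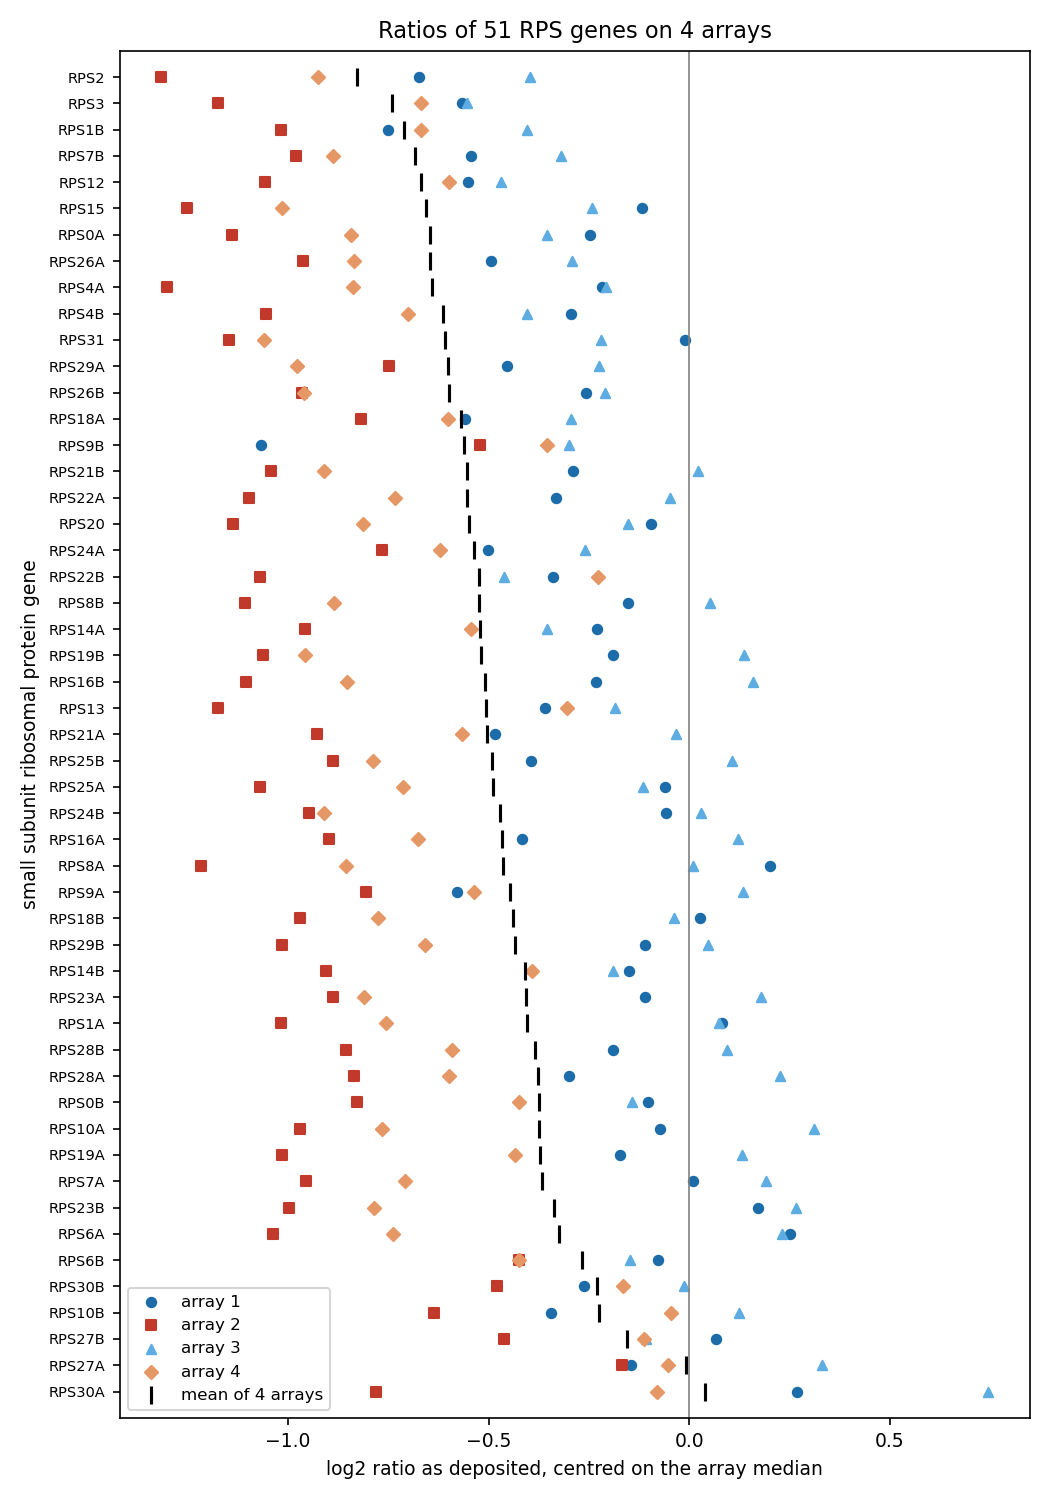
Log2 ratio (horizontal axis) of 51 RPS genes on each array, ordered by the mean over 4 arrays (black bars). Squares and diamonds of arrays 2 and 4 lie left of the symbols of arrays 1 and 3 for 43 of these genes, and the means run from -0.83 in RPS2 to 0.04 in RPS30A.

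The order of arrays was nearly the same from gene to gene. Leaving out the 1 gene with repeated values, array 2 gave the lowest of the 4 values in 50 of 54 genes, and both arrays 2 and 4 lay below both arrays 1 and 3 in 44. The 10 exceptions included RPS1B, RPS9A, RPS9B, RPS10B, RPS13, RPS22B, RPS27A and RPS30B. The share of all features with this order of arrays was not counted. The 73 large subunit genes had the same order in their array medians, -0.19, -0.97, -0.02 and -0.69, so it is not particular to the 40S genes. In RPS9B, which encodes a protein that affects decoding accuracy, array 1 was the lowest, with -1.07, -0.52, -0.30 and -0.35. It was the lowest value of any 40S gene on array 1. The SD over arrays ranged from 0.18 in RPS6B to 0.68 in RPS8A, with a median of 0.45. RPS6B, one of the genes for the phosphorylated protein Rps6, had -0.08, -0.42, -0.15 and -0.43, and so stayed within a narrow band. RPS8A, for a body protein, had 0.20, -1.22, 0.01 and -0.85, and so spanned both signs.

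Within one array the 54 genes lay closer together than features at large. Their SD was 0.26, 0.25, 0.26 and 0.29 on arrays 1 to 4, against 0.49, 0.59, 0.49 and 0.50 over all features. The differences that remained between the genes were shared by some arrays. Over the 54 genes, which are no independent replicates, Pearson's r was 0.528 between arrays 1 and 3 and 0.729 between arrays 2 and 4. The 4 other combinations gave -0.117 to 0.155, as a description only. A gene that was low among its fellows on array 2 was thus mostly low on array 4, and its place on array 1 or 3 could not be read from that.

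**Figure D3:**
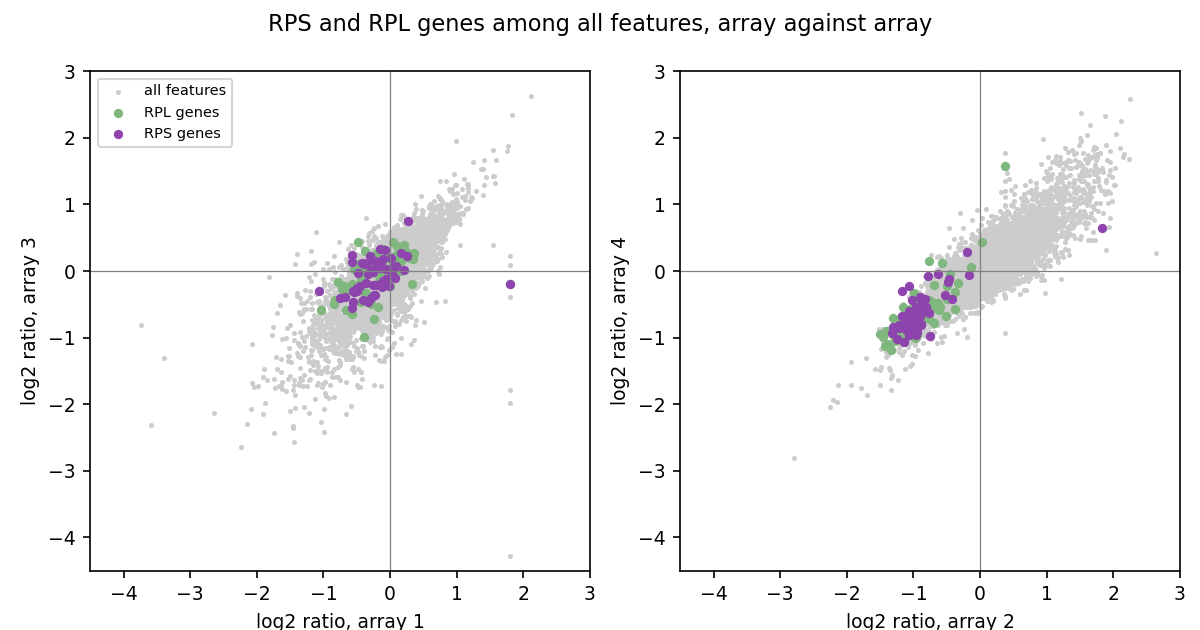
Log2 ratios on array 3 against array 1 (left) and on array 4 against array 2 (right) for all features (grey), RPL genes (green) and RPS genes (purple). Most RPS genes on the right form a compact cloud around their medians of -0.97 and -0.70, at the low end of all features. Single genes lie outside it. On the left the RPS medians are -0.23 on array 1 and -0.05 on array 3.

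Genes of several protein families were among the least negative. RPS30A, whose small basic protein lies near the decoding site, had 0.27, -0.78, 0.75 and -0.08, so that array 3 was high and array 2 low. Its mean was 0.04 ± 0.64 (SD, n = 4), the only positive one among the 54 genes. RPS27A, for a zinc-binding protein, had -0.15, -0.17, 0.33 and -0.05, and its paralog RPS27B had 0.07, -0.46, -0.11 and -0.11. Both RPS27 genes thus stayed near 0, with means of -0.01 and -0.15. RPS10B had -0.34, -0.64, 0.12 and -0.05, and RPS30B -0.26, -0.48, -0.01 and -0.16. RPS10B and RPS30B kept array 2 as the lowest at a smaller size. For these 5 genes limma gave adjusted p from 0.334 to 0.979.

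Repeated values touched 1 gene of the set. One exact deposited value occurred again and again on each array, at 41, 46, 41 and 35 probes of arrays 1 to 4, while the next most common value occurred at 5 or 6 probes. After centring on the probes these values were 1.80, 0.37, -0.20 and 0.65. No source used here says what the repeated value stands for. The gene of the set that carried it, on 3 arrays, is left out wherever 54 genes are counted, and no value of it is given. None of the other 54 RPS genes carried a repeated value, so their ratios are not affected by it. Over the whole array 52 features carried it, 27 of them on all 4 arrays. RPL43B, a large subunit gene, carried it on 3 arrays too, with 1.58 on array 4 as its own value.

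The paralogs were compared by subtracting the log2 ratio of the B gene from that of the A gene on each array. The probe sequences were not used here, and copies of near-identical sequence may share signal, which was not tested. For 1 pair and 4 arrays the exact two-sided sign-flip permutation test cannot go below p = 0.13, so no pair could pass. Leaving out the pair of the gene with repeated values, the median size of the mean difference over 23 pairs was 0.11. In 11 pairs the mean difference was below 0.1 in size. Opposite signs cancel in such a mean, so a small one can hide differences on single arrays. RPS6 was 1 of these 11, with A minus B of 0.33, -0.61, 0.38 and -0.31 on arrays 1 to 4. Genes of the set that are not paralogs differed in their means by a median of 0.15. On single arrays the median size of the difference was 0.28, 0.18, 0.22 and 0.18 within pairs, against 0.25, 0.19, 0.25 and 0.24 between non-paralogs. Paralogs were thus about as far apart as any other genes of the set on arrays 1, 2 and 3, and somewhat closer on array 4. Over the 23 pairs Pearson's r of the A against the B gene was 0.012, 0.236, 0.179 and 0.25 on arrays 1 to 4, as a description.

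**Figure D4:**
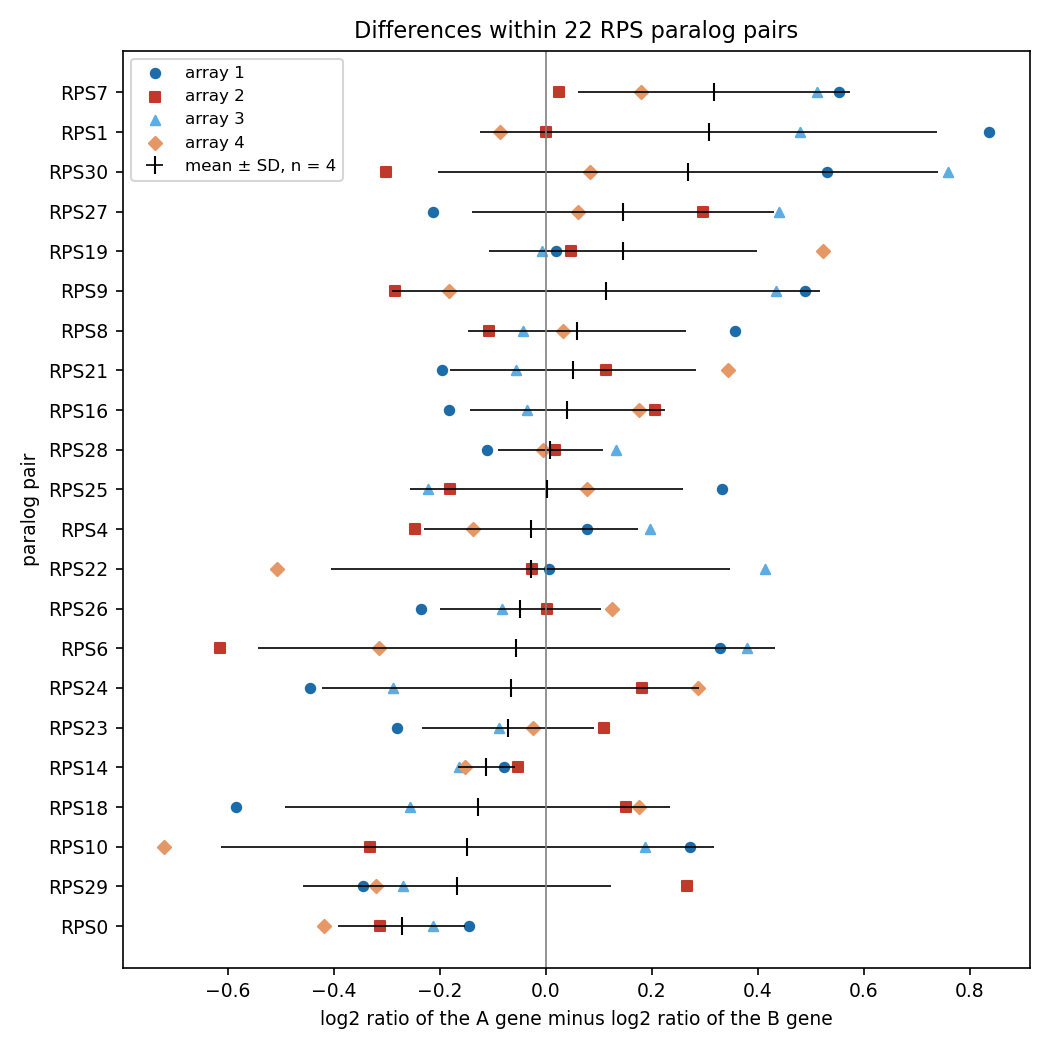
Log2 ratio of the A gene minus that of the B gene (horizontal axis) for 22 RPS pairs on each array, with the mean and SD over 4 arrays in black. The symbols of RPS0, RPS7 and RPS14 lie on 1 side of 0 on all arrays, and those of every other pair lie on both sides.

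In 3 of the 24 pairs the difference had 1 sign on all 4 arrays, a share close to the 9.68% seen over 31 pairs of large subunit genes. For RPS7, A minus B was 0.55, 0.03, 0.51 and 0.18, so that RPS7B was the more negative on every array, by a mean of 0.32 ± 0.26 (SD, n = 4; exact sign-flip permutation p = 0.13). For RPS0, whose proteins act in the maturation of the 18S ribosomal RNA, A minus B was -0.14, -0.31, -0.21 and -0.42, with RPS0A the more negative by a mean of -0.27 ± 0.12. RPS0A itself had -0.25, -1.14, -0.36 and -0.84, and RPS0B had -0.10, -0.83, -0.14 and -0.43. In both genes arrays 2 and 4 were the low ones. For RPS14, whose protein lies on the platform and can repress expression of RPS14B, A minus B was -0.08, -0.05, -0.16 and -0.15, a small difference with a mean of -0.11 ± 0.05. The last 2 pairs also gave an exact sign-flip permutation p of 0.13, the smallest that 4 arrays allow. Turning the signs of arrays 2 and 4 left none of these 3 pairs with 1 sign. The mean difference was then 0.21 for RPS7 and 0.09 for RPS0. Other pairs, RPS6 and RPS24 among them, then had 1 sign on all 4 arrays, so these patterns also depend on the deposited signs.

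Other pairs differed on some arrays and not on others. For RPS1, A minus B was 0.83, 0.001, 0.48 and -0.09, so RPS1B was the more negative on arrays 1 and 3 and level with RPS1A on arrays 2 and 4. RPS1A had 0.08, -1.02, 0.07 and -0.76. For RPS30, A minus B ran from -0.30 on array 2 to 0.76 on array 3.

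By the mean over arrays, in which opposite signs cancel, the closest pairs were RPS25, RPS28 and RPS4. For RPS25, whose protein is known for its part in initiation at internal entry sites, A minus B was 0.33, -0.18, -0.22 and 0.08, which averaged out at 0.0016 ± 0.26 (SD, n = 4) although single arrays differed. RPS25A had -0.06, -1.07, -0.12 and -0.71, and RPS25B -0.39, -0.89, 0.11 and -0.79. For RPS4, a body protein, RPS4A had -0.22, -1.30, -0.21 and -0.84, and RPS4B had -0.29, -1.06, -0.40 and -0.70. Both RPS4 genes were negative on all arrays, with means of -0.64 and -0.61. Their A minus B was 0.08, -0.25, 0.20 and -0.14.

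The genes described as bound by Abf1 were in the middle or the less negative part of the set. RPS28A, for a head protein near the exit of the messenger RNA, had -0.30, -0.84, 0.23 and -0.60, and RPS28B had -0.19, -0.85, 0.10 and -0.59. The copies differed by at most 0.13 on any array, and both were positive on array 3. Their means of -0.38 ± 0.46 and -0.39 ± 0.42 (SD, n = 4; limma adjusted p 0.328 and 0.296) were less negative than the median of the set, -0.49. RPS22B had -0.34, -1.07, -0.46 and -0.23, and its paralog RPS22A had -0.33, -1.10, -0.05 and -0.73. The RPS22 genes were alike on arrays 1 and 2 and differed on array 3, by 0.41, and on array 4, by -0.51, in opposite directions. With means of -0.52 and -0.55 (limma adjusted p 0.162 and 0.193) both lay near the middle of the set.

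By place in the subunit the genes had the same median. The 20 genes for head proteins without repeated values had a median mean ratio of -0.49, with 20 negative means, and the 34 genes for the body and platform had -0.49, with 33 negative means. On array 3 the head genes had a median of 0.07 with 9 of 20 negative, and the body and platform genes had -0.12 with 21 of 34 negative. This difference was not tested. Some members are neighbours of other ribosomal protein genes. RPS16B and RPL13A, RPS16A and RPL13B, and RPS22A and RPL39 are next to each other and point away from one another, by RefSeq gene order and the strand letter in the locus tags. Their mean log2 ratios were -0.51 and -0.34, -0.47 and -0.34, and -0.55 and -0.34, negative in all 6 genes. Negative means were also found in 96.4% of all RPS and 98.6% of all RPL genes, so this does not set the neighbours apart.

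The large subunit genes had much the same values as the small subunit genes. Of 73 RPL genes 72 had a negative mean ratio, and the exception was RPL43B. The median of their means was -0.45, and their array medians were -0.19, -0.97, -0.02 and -0.69. The small subunit median was off that of the large subunit by -0.04, 0.004, -0.03 and -0.01 on arrays 1 to 4, so the subunits could hardly be told apart by their medians. Limma called 2 of the 73, RPL19B (adjusted p 0.0453) and RPL9A (0.0477), both negative, beside 1.86% of all features with negative calls. The lowest means were those of RPL5 (-0.95) and RPL12B (-0.82), which were not called. Of 5 stalk genes, which encode the acidic proteins of the large subunit that recruit elongation factors, 5 had negative means and 2 were called, RPP1A at -1.54 and RPP0 at -0.97, beside the same 1.86%. ASC1, for a scaffold protein bound to the head of the 40S subunit, had -0.66, -1.37, -0.48 and -0.96. Its mean of -0.87 ± 0.39 lay below that of every RPS gene but was not called (limma adjusted p 0.0632). With turned signs 8 of the 73 RPL genes had negative means and their median was 0.38, and the 5 stalk genes and ASC1 had positive means.

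The genes that act on 40S genes and proteins had mixed signs. Of 16 genes for late 40S assembly factors and chaperones, 9 had negative and 7 positive means, with a median of -0.02, and 0 were called in limma, beside 3.23% of all features. An unadjusted p below 0.05 with a negative mean was met by 2, beside 11.1% of all features. EMG1, for a methyltransferase of the 18S ribosomal RNA, had the most negative mean at -0.44, followed by BUD23, for another such enzyme, at -0.39. SLX9 had the most positive mean at 0.20, then RIO1, for an atypical kinase, at 0.14. Of 10 regulators 6 had negative and 4 positive means, with a median of -0.17, and only ABF1 was called. RAP1 had -0.63, -0.26, -0.79 and -0.30, with a mean of -0.49 ± 0.25 (limma adjusted p 0.117), and IFH1, the coactivator at these promoters, had -0.91, -0.003, -0.80 and -0.25 with a mean of -0.49 (0.216). Both were more negative on arrays 1 and 3 than on arrays 2 and 4. FHL1, with -0.34, -0.07, -0.32 and -0.44, and HMO1, with -0.50, -0.31, -0.28 and -0.49, did not have that order. REB1 had -0.12, 1.44, -1.14 and 1.56, and a mean of 0.44 that none of the arrays came near. SFP1 was alike, with -0.48, 1.53, -1.46 and 1.48 and a mean of 0.27. With turned signs 7 of the 10 regulators had negative means, with a median of -0.09. Limma then called 1 of the 10, beside 4.88% of all features, and ABF1 had both signs.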

How the data were processed

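The deposited table held 1 value per probe and array, and the authors' values were taken as log2 ratios because both signs occur and the range is -4.30 to 2.67. No source used here names the dyes, the background correction or the normalization. There were 6226 probes, no missing value and no column without a sample. Neither counts nor spot brightness came with the ratios, and precision is limited by the number of arrays. The platform annotation gave 5576 probes 1 gene, 0 several and 650 none. All 55 RPS symbols matched the RefSeq R64 gene table, which was used for names and gene order only. Probes of a gene were averaged and each array was centred on its median, leaving 6189 features.

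Ratios were tested against 0 with lmFit and eBayes of limma 3.58.1 in R 4.3.3, with 3 residual degrees of freedom, two-sided, Benjamini-Hochberg adjustment over all features and a threshold of 0.05. Paralog differences were tested with exact sign-flip permutations. Python 3.11.15, pandas 2.3.3 and matplotlib 3.10.9 prepared tables and plots.

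The members, lists and tests were chosen with earlier results of these data known. The genes named were every called member, the 6 most and 6 least negative means, the 5 pairs with the largest and 3 with the smallest difference, carriers of a repeated value, genes without a paralog, and the RPS22 and RPS28 genes. Some genes and pairs that this rule takes are not reported here. Others named, and the sorting of proteins by place in the subunit, were chosen after their values were seen. Alternatives were no centring, equal spread, quantile normalization, repeated values as missing, turned signs, each array left out, array weights, robust eBayes, treat, stricter thresholds and single probes. Promoter and protein sequences were not used here.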

Additional observations from a re-analysis of the deposited data

Results flagged for a closer look

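For 2 of 80 values by array (55 genes, 24 pairs and the median of the set) 1 of the 4 arrays lay far from the rest, where chance alone gives about 1 in 20. The RPS19 genes, which encode a head protein, differed by 0.02, 0.05 and -0.01 on arrays 1 to 3, while on array 4 A minus B was 0.52. The RPS29 genes differed by -0.34, -0.27 and -0.32 on arrays 1, 3 and 4, while on array 2 A minus B was 0.27. None of these values carried a repeated value.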

How the results depend on the processing

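The median of -0.49 and the count of 53 negative means kept their direction, and stayed within the spread between arrays or 1.5 times the count, under no centring, equal spread, quantile normalization, missing repeated values and the removal of the gene with repeated values, the last chosen after seeing the data. Without any 1 array the median lay between -0.64 and -0.31, the latter without array 2, and the count between 52 and 54. The count of called genes was 0 in the reported fit, 1 without centring, 3 with equal spread and 1 with array weights, all negative, and 0 in every other setting, each array left out included. Over all features limma called 200, against 213 without centring, 213 with equal spread, 234 with array weights, 302 with turned signs, 98 with quantile normalization, 40 with treat, 22 without array 2 and 0 without array 1, 3 or 4.

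With turned signs on arrays 2 and 4 the median was 0.34, 3 means were negative, and these named genes had means of the opposite sign: RPS0A 0.35, RPS0B 0.25, RPS10B 0.12, RPS12 0.16, RPS13 0.23, RPS15 0.48, RPS1A 0.48, RPS1B 0.13, RPS2 0.29, RPS20 0.43, RPS22A 0.36, RPS22B 0.12, RPS25A 0.40, RPS25B 0.35, RPS27A 0.10, RPS27B 0.13, RPS28A 0.34, RPS28B 0.34, RPS3 0.18, RPS31 0.49, RPS4A 0.43, RPS4B 0.26, RPS7A 0.47 and RPS7B 0.25. RPS27A was also 0.010 with quantile normalization and between -0.12 and 0.044 without 1 array, and RPS30A lay between -0.20 and 0.31. Each ratio already pairs mutant and wild type within an array, so no further pairing was fitted. The cause of these shifts was not tested.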
